A study of Rattus norvegicus with 6 samples.

Results

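The hypoxia-inducible factors and the oxygen sensors that control them were examined as a set of 10 rat genes, chosen by symbol among the 38445 genes of the count files. They are the alpha subunits Hif1a, Epas1 and Hif3a, the partner subunits Arnt and Arnt2, the prolyl hydroxylases Egln1, Egln2 and Egln3, the ubiquitin ligase subunit Vhl and the asparaginyl hydroxylase Hif1an. All 10 were found and all 10 passed the filter on low counts, as did 18141 genes in all. RNA-seq was performed on the amygdala of adult male wild-type Sprague Dawley rats, an outbred laboratory strain, that were given saline (control) or ethanol at 1 g/kg intraperitoneally, 1 h before the tissue was taken. The 6 rats of each group gave 3 libraries, each of RNA pooled from 2 rats, so the spread between libraries is that between pools and not between animals. The dissected tissue held the central, medial and basolateral nuclei together, and both groups had received an injection.

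A hypoxia-inducible factor is a pair of basic helix-loop-helix PAS proteins, an alpha subunit whose stability depends on oxygen and a partner of the ARNT family that is present at all times. When oxygen is plentiful, the EGLN enzymes hydroxylate prolines of the alpha subunit, VHL recognizes the hydroxylated protein and has it degraded, and HIF1AN hydroxylates an asparagine that would otherwise bind the coactivators p300 and CBP. The pathway is therefore regulated largely at the level of protein, which RNA counts do not measure. Hif3a differs from its relatives in that several of its splice forms lack a strong activation domain, and some of them, such as IPAS, inhibit the other alpha subunits. Reads of all transcripts of a gene were summed in the deposited counts, so these forms cannot be told apart here.

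Each library held 62576504 to 70755739 reads counted on genes. Levels are given as CPM, the counts of a gene per 1e+06 reads counted, and 3 counts correspond to 0.0424 to 0.0479 CPM, a floor that covers counting error only. Neuronal marker genes summed to 3472 to 4449 CPM per library, markers of central amygdala neurons to 364 to 470 CPM and markers of basolateral amygdala neurons to 474 to 991 CPM, so genes of the labelled tissue were present in every library. Markers of choroid plexus epithelium, the secretory lining of the ventricles, summed to 529 to 1144 CPM in the controls and to 12.02, 13.09 and 490.9 CPM in ethanol replicates 1, 2 and 3. Of the 8 choroid plexus markers tested, 4 had an unadjusted p below 0.05 and all 4 of these were lower after ethanol, while Otx2 was at or under 3 counts in each library. Markers of motile cilia and ependyma lay between 56.0 and 76.7 CPM in the controls and between 44.9 and 47.9 CPM after ethanol. By edgeR's quasi-likelihood test 6 of these 7 markers had an unadjusted p below 0.05, against 4.15% of all genes tested. Oligodendrocyte markers varied from 3291 to 9331 CPM and hypothalamic neuron markers from 10.01 to 318.9 CPM, in both cases with the highest value in ethanol replicate 3. The summed levels of markers of astrocytes, microglia, endothelium, mural cells and red blood cells overlapped between the groups. For red blood cells the overlap was narrow, with the highest control at 295.5 CPM and the lowest ethanol library at 293.8 CPM. In whole tissue, fewer cells of a type and less RNA per cell cannot be told apart.

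Of the 10 genes, Hif3a had by far the largest difference between the groups. It was higher in each ethanol library than in any control library, by 2.63-fold on average, while the other 9 genes differed by -0.14 to 0.17 on the log2 scale and their groups overlapped. In the edgeR quasi-likelihood fit, 0 of the 10 genes passed the study's threshold of 0.2 for the Benjamini-Hochberg adjusted p, against 0.0% of all 18141 genes. The study's own analysis of these libraries did report genes past this threshold, Hif3a among them, so the call here differs from the published one. At an unadjusted p below 0.05 in the edgeR quasi-likelihood fit there was 1 gene among the 10, Hif3a. Among all tested there were 753 genes, which is 4.15% (1.57% higher and 2.58% lower after ethanol). Hif3a was also the only one of the 10 with an absolute log2 fold change of at least 1, against 0.706% of all genes, and the only one whose groups did not overlap, against 8.85%. Without ethanol replicate 3, 83 genes of the whole table and 0 of the 10 passed the threshold, and without ethanol replicate 1 the numbers were 4 and 0. The likelihood ratio test of edgeR called 77 genes and DESeq2 75, and each of them called Hif3a alone among the 10, against 0.424% and 0.422% of the genes they adjusted. Limma-voom called 0 genes at an adjusted p below 0.2 and 780 (4.3%) at an unadjusted p below 0.05.

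**Figure D1:**
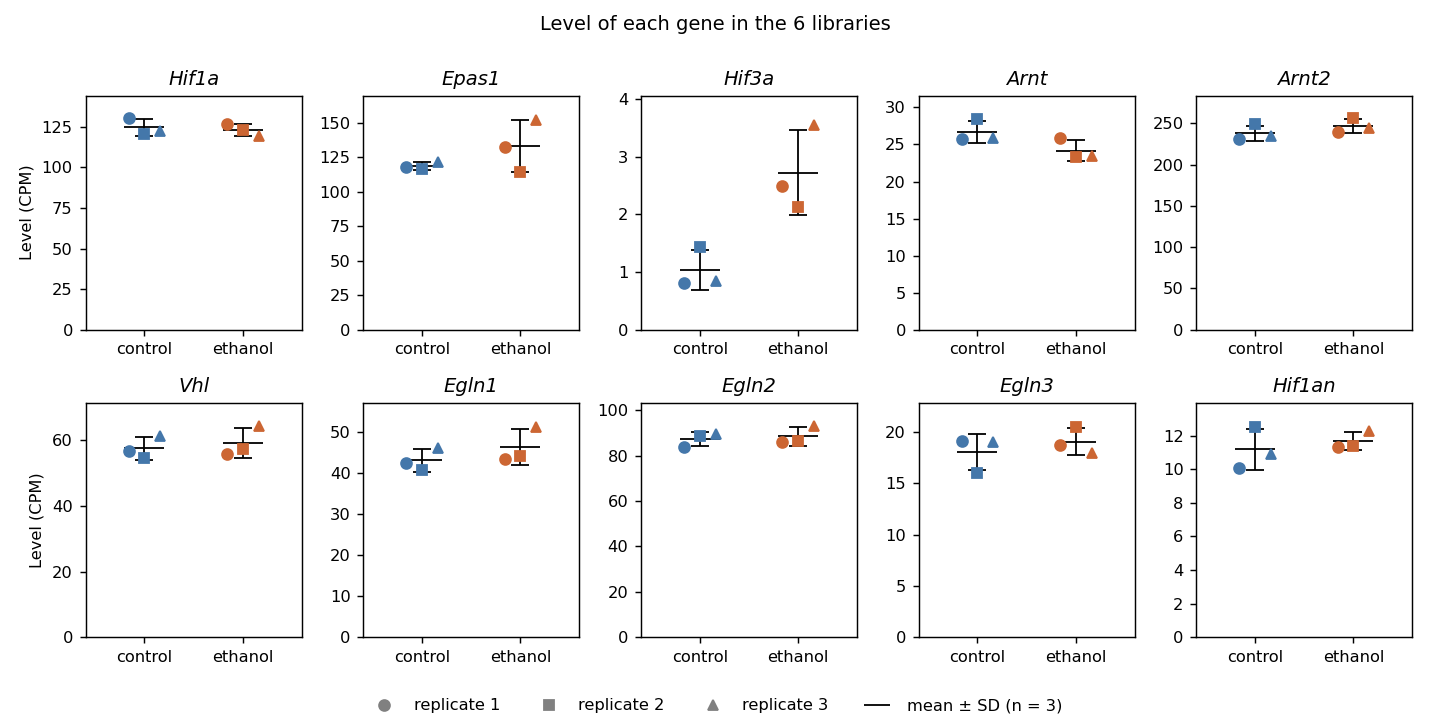
Level of each of the 10 genes in CPM, scaled by TMM, in the 3 control and 3 ethanol libraries. Symbols mark the replicate number and black lines the mean and SD over 3 libraries. The Hif3a panel is the only one of the 10 in which the groups do not overlap.

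Hif3a (NCBI gene 64345) lies on the minus strand of chromosome 1 of Rnor_6.0 from 78976318 to 78997869, with 2065 exonic bases in 15 blocks that overlap no other annotated exon. It was the least abundant of the 10 genes. Control replicates 1, 2 and 3 had 53, 102 and 54 Hif3a counts and ethanol replicates 1, 2 and 3 had 160, 137 and 247, or 0.811, 1.44 and 0.852 CPM against 2.49, 2.13 and 3.55 CPM. The groups did not overlap, and the narrowest gap was that between control replicate 2 and ethanol replicate 2. The group means were 1.03 ± 0.350 CPM (SD, n = 3) and 2.72 ± 0.737 CPM (SD, n = 3), and the log2 fold change was 1.39 with a standard error of 0.28 and a 95% interval of 0.74 to 2.05. By edgeR's quasi-likelihood test Hif3a had an unadjusted p of 0.00123, which ranked 25 among the 18141 genes, and the adjusted p was 0.818. The exact permutation test (2-sided) on the 6 libraries gave p = 0.1, the smallest that 3 libraries against 3 allow. A separation of this kind, with ethanol higher, was seen in 663 genes or 3.65% of those tested. The coefficient of variation of Hif3a was 33.9% among the controls and 27.1% after ethanol, and counting alone would give 11.98% at this depth in the controls.

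Hif3a is also a gene that the study singled out in part with these same libraries, so its difference here is not independent evidence. The study also drew on open chromatin at the Hif3a promoter, measured by ATAC-seq in a separate cohort of rats. It further reported higher Hif3a mRNA after ethanol by quantitative PCR. The call on Hif3a depended on the test more than its size did. The log2 fold change was 1.395 with edgeR's likelihood ratio test (adjusted p = 0.0142) and 1.39 with DESeq2 (adjusted p = 0.0059), and with each library left out in turn it lay between 1.16 (without ethanol replicate 3) and 1.71 (without control replicate 2). In none of the 6 fits with a library left out was edgeR's adjusted p below 0.2, the lowest being 0.316 without ethanol replicate 3. The choroid plexus markers were low in ethanol replicates 1 and 2, and Hif3a was highest in ethanol replicate 3, the ethanol library with the most choroid plexus RNA. Their part in the Hif3a difference was not tested.

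RefSeq's table for the GRCr8 build lists 2 start sites for Hif3a that lie 5733 bases apart on the minus strand of chromosome 1, both in a window of 300 bases that runs from 250 bases before the start to 50 bases from it on. These windows are shown because Hif3a is the gene that differed, and the windows of Egln1 and Egln3 are added because both are known targets of the hypoxia-inducible factors among the sensors. Capitals mark the core of the hypoxia response element, ACGTG or GCGTG, on either strand.
Hif3a, upstream start, chr1:86877789-86878088, minus strand: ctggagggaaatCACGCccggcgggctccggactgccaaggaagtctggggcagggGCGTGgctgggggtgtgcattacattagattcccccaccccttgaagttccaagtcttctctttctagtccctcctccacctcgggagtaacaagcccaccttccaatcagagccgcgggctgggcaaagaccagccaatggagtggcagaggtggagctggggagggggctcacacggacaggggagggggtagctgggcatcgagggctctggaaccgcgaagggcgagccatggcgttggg
Hif3a, downstream start, chr1:86872056-86872355, minus strand: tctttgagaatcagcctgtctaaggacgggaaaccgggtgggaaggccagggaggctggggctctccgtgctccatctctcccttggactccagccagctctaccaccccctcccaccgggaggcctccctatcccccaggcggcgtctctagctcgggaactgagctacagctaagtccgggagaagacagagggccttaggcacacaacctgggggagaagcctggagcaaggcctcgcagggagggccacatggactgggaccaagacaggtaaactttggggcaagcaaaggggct
Egln1, chr19:69804632-69804931, minus strand: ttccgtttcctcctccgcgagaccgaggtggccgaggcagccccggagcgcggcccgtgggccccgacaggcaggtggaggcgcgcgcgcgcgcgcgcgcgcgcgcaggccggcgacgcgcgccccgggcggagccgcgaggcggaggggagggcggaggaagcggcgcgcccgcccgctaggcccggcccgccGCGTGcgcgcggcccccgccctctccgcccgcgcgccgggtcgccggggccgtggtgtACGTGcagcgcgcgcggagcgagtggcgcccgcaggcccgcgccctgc
Egln3, chr6:77410966-77411265, minus strand: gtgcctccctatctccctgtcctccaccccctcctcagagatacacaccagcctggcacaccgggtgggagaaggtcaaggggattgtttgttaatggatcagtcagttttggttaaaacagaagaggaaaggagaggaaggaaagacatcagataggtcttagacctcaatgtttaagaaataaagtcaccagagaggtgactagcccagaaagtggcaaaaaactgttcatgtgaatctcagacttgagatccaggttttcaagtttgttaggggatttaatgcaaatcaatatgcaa
The upstream Hif3a window holds GCGTG from base -194 to -190 and its reverse complement from -238 to -234, counted from the start, and the downstream window holds neither core. The Egln1 window holds GCGTG from base -56 to -52 and ACGTG from base 3 to 7, and the Egln3 window holds neither core. Over all 10 genes, 4 of the 11 windows held a core, those of Hif1a, Hif3a (upstream), Arnt and Egln1, and the window of Hif1a held ACGTG at 3 positions, of which a pair overlap as CACGTG. Of the 33469 windows of this length in the table, 41.6% held at least 1 core and 19.2% at least 2. The match is one of letters only. The start sites are those of GRCr8, whereas the reads were counted on Rnor_6.0, and the counts do not show which start was used.

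Among the other alpha subunits, Hif1a and Epas1 were abundant and their groups overlapped. Hif1a (NCBI gene 29560, chromosome 6 from 96810868 to 96856303), the ubiquitous oxygen-labile subunit, was at 130.6, 120.8 and 122.6 CPM in the controls and at 126.6, 123 and 119.2 CPM after ethanol. Its lowest value was in ethanol replicate 3 and its highest in control replicate 1. The log2 fold change of -0.021 (95% interval -0.16 to 0.11, edgeR quasi-likelihood adjusted p = 1.0) turned to 0.0058 without control replicate 1 and to 0.0018 without ethanol replicate 3. Epas1 (NCBI gene 29452, chromosome 6 from 10306508 to 10385239) encodes HIF-2 alpha, which in brain is known mainly from endothelium and glia. It was at 117.7, 116.3 and 121.7 CPM in the controls and at 132.2, 114.3 and 152.2 CPM after ethanol. The ethanol libraries spread around the controls, with replicate 2 below and replicates 1 and 3 above all of them, and the SD was 18.96 CPM after ethanol against 2.83 CPM in the controls. The log2 fold change was 0.17 with a 95% interval of -0.067 to 0.40 (edgeR's quasi-likelihood adjusted p = 1.0). Without ethanol replicate 2 it was 0.26, with an unadjusted p of 0.0146 in the edgeR fit, and without ethanol replicate 3 it was 0.057. Astrocyte markers summed to 5382 CPM in ethanol replicate 3 and to 3997 to 4792 CPM in the other 5 libraries, and endothelial markers to 165 to 193 CPM over all 6. Their part in the spread of Epas1 was not tested.

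For the partner subunits the groups overlapped and the intervals of both fold changes held 0. Arnt (NCBI gene 25242, chromosome 2 from 196594178 to 196651486), the general partner that also dimerizes with the aryl hydrocarbon receptor, was at 25.7, 28.4 and 25.9 CPM in the controls and at 25.9, 23.3 and 23.4 CPM after ethanol. Ethanol replicates 2 and 3 were below every control, and ethanol replicate 1 lay within the control range. Its log2 fold change of -0.14 had a 95% interval of -0.32 to 0.032 (edgeR's quasi-likelihood adjusted p = 1.0). Arnt2 (NCBI gene 25243, chromosome 1 from 146399217 to 146556437), the paralog that is enriched in neurons, was at 231.0, 248.7 and 234.4 CPM in the controls and at 239.3, 256.5 and 244.5 CPM after ethanol, with overlapping groups. The log2 fold change was 0.052 with a 95% interval of -0.097 to 0.20 (edgeR's quasi-likelihood adjusted p = 1.0).

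The prolyl hydroxylases that sense oxygen for the pathway overlapped between the groups. Egln1 (NCBI gene 308913, chromosome 19 from 57660194 to 57701158) encodes PHD2, the main oxygen sensor in most cells. Its levels were 42.5, 40.6 and 46.0 CPM in the controls and 43.3, 44.0 and 51.2 CPM after ethanol, and only ethanol replicate 3 exceeded the control range. Egln2 (NCBI gene 308457, chromosome 1 from 83969456 to 83977665), which encodes PHD1, was at 84.0, 88.4 and 89.5 CPM in the controls and at 85.8, 86.2 and 93.2 CPM after ethanol. Here too ethanol replicate 3 alone was above the controls. Egln3 (NCBI gene 54702, chromosome 6 from 75050329 to 75075795) encodes PHD3, the enzyme of the family that is most strongly induced by hypoxia in many cell types. It was at 19.14, 15.97 and 18.96 CPM in the controls and at 18.68, 20.49 and 17.91 CPM after ethanol, with control replicate 2 the lowest of the 6 libraries. The log2 fold changes of Egln1, Egln2 and Egln3 were 0.10, 0.018 and 0.079, with 95% intervals of -0.095 to 0.30, -0.12 to 0.15 and -0.14 to 0.30 (edgeR's quasi-likelihood adjusted p = 1.0 for each). The sign of Egln2 changed to -0.0073 with library size alone in place of TMM and to -0.016 without control replicate 1, and that of Egln3 to -0.0010 without control replicate 2. Of the exonic bases of Egln2, 33 lie opposite exons of Cyp2t1 on the other strand, and the counting was strand-specific.

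The remaining 2 genes act after the prolyl hydroxylases and beside them. Vhl (NCBI gene 24874, chromosome 4 from 145580869 to 145587835), the substrate receptor of the ligase that removes hydroxylated alpha subunits, was at 56.9, 54.5 and 61.5 CPM in the controls and at 55.9, 57.5 and 64.3 CPM after ethanol. Hif1an (NCBI gene 309434, chromosome 1 from 264309214 to 264319269), also named FIH, was at 10.1, 12.5 and 10.9 CPM in the controls and at 11.3, 11.4 and 12.3 CPM after ethanol. The groups overlapped for both genes. Their log2 fold changes were 0.040 (95% interval -0.14 to 0.22) and 0.061 (95% interval -0.17 to 0.30), each with an adjusted p of 1.0 from edgeR's quasi-likelihood test. The sign of Hif1an changed to -0.015 without control replicate 1.

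**Figure D2:**
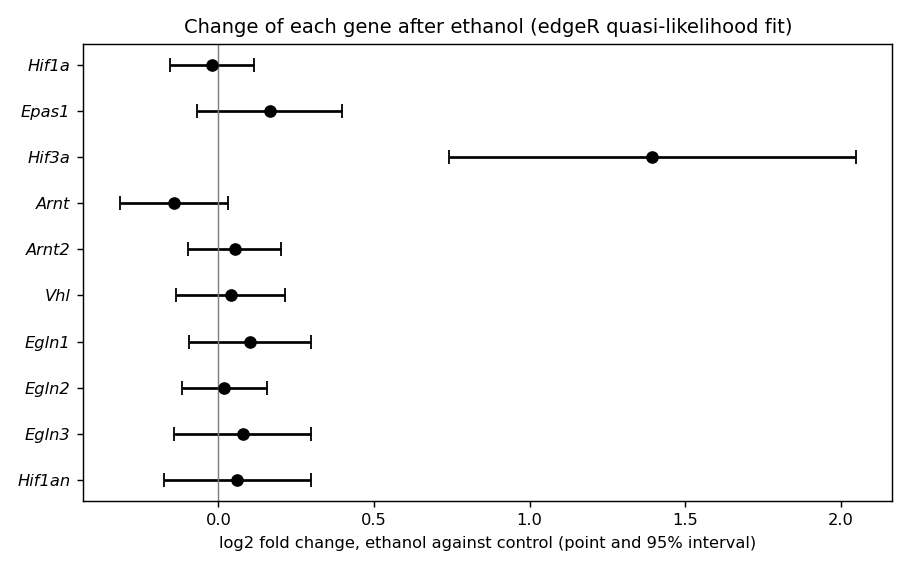
Log2 fold change of the 10 genes, ethanol against control, from the edgeR quasi-likelihood fit over all genes, with 95% intervals as bars (3 libraries per group). The interval of Hif3a runs from 0.74 to 2.05, and those of the other 9 genes cross 0 and lie between -0.32 and 0.40.

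The intervals of these 9 genes reached from a fold of 0.803 for Arnt to a fold of 1.32 for Epas1, so that larger differences in the group means lay outside them. The median log2 fold change of the 10 genes was 0.057, beside 0.0064 for all genes tested. Ethanol replicate 3 held the highest of the 6 values for 5 of the 10 genes (Epas1, Hif3a, Vhl, Egln1 and Egln2) and the lowest for Hif1a. This library also had the lowest sum of neuronal markers (3472 CPM). Without it, the log2 fold changes of Vhl and Egln2 were -0.023 and -0.021, and that of Egln1 was 0.022.

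Levels of different genes were compared per kb of exonic length, as RPKM scaled by TMM. In the controls the order was Epas1 (43.4 ± 1.04), Egln2 (38.9 ± 1.31), Hif1a (28.6 ± 1.19), Vhl (20.5 ± 1.26), Arnt2 (16.4 ± 0.647), Egln1 (10.8 ± 0.694), Arnt (8.49 ± 0.487), Hif1an (8.34 ± 0.932), Egln3 (6.40 ± 0.632) and Hif3a (0.500 ± 0.169 RPKM, SD, n = 3 each). Arnt and Hif1an were the only neighbours in this order whose control libraries overlapped. After ethanol their order was turned and their libraries were apart, with Arnt at 7.40 to 8.23 RPKM and Hif1an at 8.44 to 9.15 RPKM, and the other neighbours kept their order with no overlap. Egln3 was 12.8-fold above Hif3a in the controls. The step from Epas1 to Egln2 was small, at 1.12-fold, but the lowest Epas1 control (42.6 RPKM) was above the highest Egln2 control (39.9 RPKM). This order rests on the annotated exonic length, which ranged from 1340 bases for Hif1an to 14496 bases for Arnt2 and counts every annotated exon of a gene, whether or not it is used in the amygdala.

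**Figure D3:**
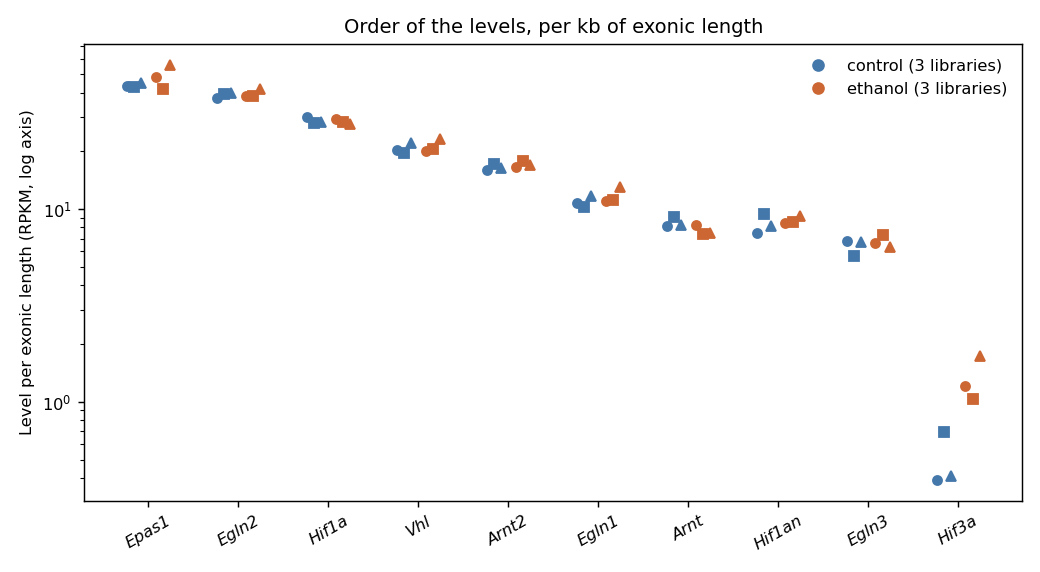
Level of the 10 genes per kb of exonic length (RPKM, log axis), ordered by the control mean, with a point for each of the 3 control and 3 ethanol libraries. Hif3a lies below the other 9 genes in all 6 libraries, and the ranges of Arnt and Hif1an overlap in the controls and are apart after ethanol, with Hif1an higher.

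Within the family of alpha subunits, Epas1 made up 59.9% ± 1.14 of the length-scaled RNA in the controls and 62.0% ± 3.46 after ethanol, Hif1a 39.5% ± 1.20 and 36.3% ± 3.76, and Hif3a 0.692% ± 0.249 and 1.67% ± 0.311 (SD, n = 3 libraries). Before scaling by the annotated lengths of 2730 and 4354 bases, Epas1 was below Hif1a in the controls (means of 118.5 and 124.7 CPM). After ethanol it was above (132.9 and 122.9 CPM). Egln2 was the main prolyl hydroxylase RNA, with 69.3% ± 1.69 in the controls and 68.2% ± 0.471 after ethanol, followed by Egln1 with 19.3% ± 0.725 and 20.1% ± 0.967. Arnt2 took 65.9% ± 0.411 of the partner RNA in the controls and 68.9% ± 1.95 after ethanol.

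Ratios of genes within a library do not depend on the scaling between libraries, and 4 of them were tested. Hif3a was at 0.537%, 0.989% and 0.567% of the summed level of Hif1a and Epas1 in the controls and at 1.56%, 1.47% and 2.07% after ethanol. The log2 ratio was higher by 1.325 after ethanol, and the groups did not overlap (2-sided exact permutation test, p = 0.1, adjusted p = 0.2 over the 4 ratios). The ratio of Arnt2 to Arnt was 1.95, 1.90 and 1.96 in the controls and 2.01, 2.39 and 2.27 after ethanol. All 3 ethanol values were above the controls, by 0.19 on average on the log2 scale, although ethanol replicate 1 exceeded the highest control only slightly (exact permutation test, p = 0.1, adjusted p = 0.2). Neither ratio could reach a lower p with 3 libraries against 3. The ratio of Egln3 to Egln1 ran from 0.554 to 0.635 in the controls and from 0.493 to 0.655 after ethanol (exact permutation test, p = 1.0). The ratio of the 3 prolyl hydroxylases to Hif1a and Epas1 ran from 0.751 to 0.800 in the controls and from 0.720 to 0.810 after ethanol (exact permutation test, p = 0.5). Both of these overlapped between the groups.

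**Figure D4:**
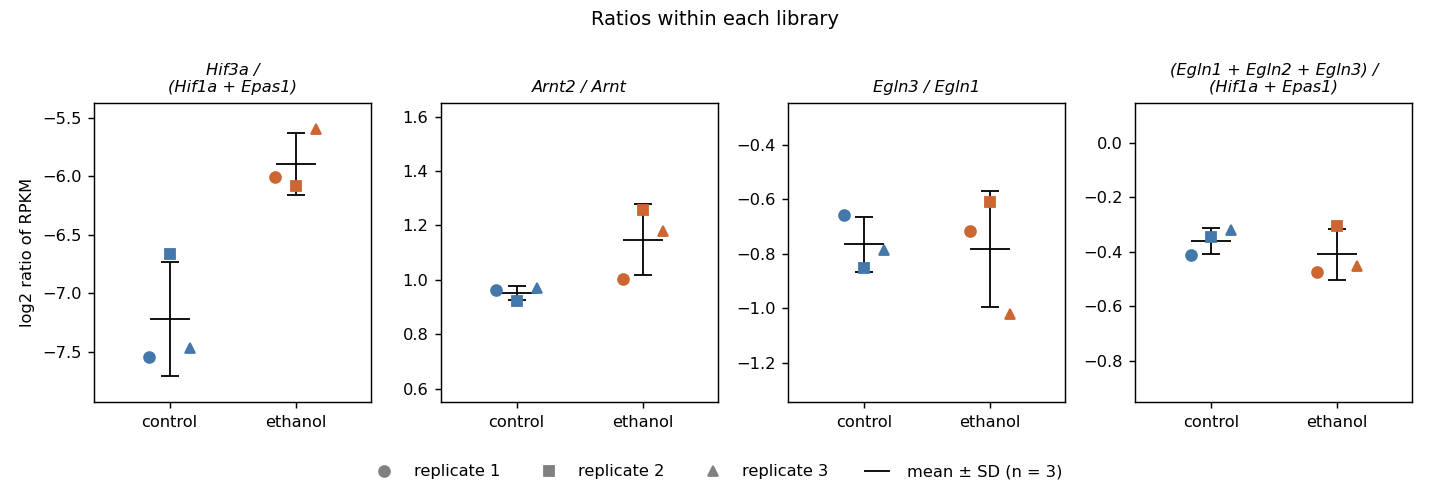
Log2 ratios of length-scaled levels within each library, with symbols for the replicate number and black lines for the mean and SD over 3 libraries. The ratios of Hif3a to Hif1a plus Epas1 and of Arnt2 to Arnt lie higher in all 3 ethanol libraries than in the controls, and the other ratios overlap.

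Known target genes of the hypoxia-inducible factors were listed from general knowledge, without the sensors above. Of the 42 genes, 40 were tested, 0 had an adjusted p below 0.2 and 2 had an unadjusted p below 0.05 from edgeR's quasi-likelihood test, which is 5.0% of the list beside 4.15% of all genes. Epo and Nos2 did not pass the filter, with Epo at 0 to 0.0436 CPM and Nos2 at 0 counts in every library. The median log2 fold change of the list was 0.040, beside 0.0064 for all genes tested. In the list 25 genes were above 0 and 15 below, beside 9539 and 8602 of all genes tested. Both genes past an unadjusted p of 0.05 were higher after ethanol. Ddit4, an inhibitor of mTORC1 that is also induced by glucocorticoids, was at 61.1, 60.7 and 56.8 CPM in the controls and at 67.8, 84.8 and 90.5 CPM after ethanol, a log2 fold change of 0.44 with a standard error of 0.10 (edgeR's adjusted p = 0.850). Slc2a1, the glucose transporter GLUT1 of the blood-brain barrier and glia, was at 111.5, 115.7 and 117.5 CPM in the controls and at 133.3, 133.5 and 162.4 CPM after ethanol, a log2 fold change of 0.32 with a standard error of 0.087 (edgeR's adjusted p = 1.0). The groups of neither gene overlapped. The same was true of Pdk1, a kinase that restrains pyruvate dehydrogenase, which was picked out after its values were seen and had a log2 fold change of 0.11. These 3 were the only genes of the list whose groups did not overlap with ethanol higher, a pattern found in 3.65% of all genes, and 0 genes of the list separated with ethanol lower, a pattern found in 5.19%.

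The most abundant targets per length were the glycolytic enzymes Aldoc, Aldoa and Gapdh, with log2 fold changes of 0.058, 0.067 and 0.071 and overlapping groups. The standard errors of these fold changes were larger, at 0.13, 0.11 and 0.093. The 16 listed genes of glucose uptake and glycolysis, a grouping made after the data were seen, had log2 fold changes from -0.37 to 0.32. Their median was 0.063, with 13 above 0 and 3 below, beside 9539 above and 8602 below among all genes tested. Only 1 of the 16, Slc2a1, had an unadjusted p below 0.05 in the edgeR fit. Tpi1 of this group had means of only 0.179 CPM in the controls and 0.194 CPM after ethanol. Any Tpi1 reads that map to several places were left out of the counts, so these values need not be its full RNA level. The 6 tested genes for vascular and secreted factors, grouped in the same way, had log2 fold changes from -0.51 to 0.083. Their median was -0.088, with 1 above 0 and 5 below, and 0 had an unadjusted p below 0.05 in the edgeR fit.

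The list of partners and regulators held 22 genes, among them the coactivators Ep300 and Crebbp, their competitor Cited2, the other subunits of the VHL ligase (Elob, Eloc, Cul2 and Rbx1) and chaperones. All 22 were tested, and 0 had an adjusted p below 0.2 or an unadjusted p below 0.05 from edgeR's quasi-likelihood test. Of all genes tested, 0.0% and 4.15% did. The median log2 fold change was 0.019, with a range from -0.069 to 0.33. The upper end was that of Hsp90aa1, which had means of only 0.435 CPM in the controls and 0.547 CPM after ethanol. Its standard error was 0.31. Any Hsp90aa1 reads that map to several places were left out of the counts, so these means need not be its full RNA level. The most abundant per length were the chaperones Hsp90ab1 and Hspa8 and the ribosomal scaffold Rack1, with log2 fold changes of 0.020, -0.014 and 0.017. Among 17 other basic helix-loop-helix PAS genes, the family to which the factors belong, 16 were tested and Sim2 did not pass the filter, at 0.0303 to 0.240 CPM. Of the 16, 0 had an adjusted p below 0.2 and 1 had an unadjusted p below 0.05. This was Per1, a clock repressor that is induced by glucocorticoids and by neuronal activity, at 60.5, 68.4 and 51.9 CPM in the controls and 68.5, 82.5 and 72.6 CPM after ethanol (log2 fold change 0.31, standard error 0.11, edgeR's adjusted p = 1.0). The highest control of Per1 was only just below the lowest ethanol library, and 3.65% of all genes separated in this direction. The most abundant of this list per length were Ncoa1, Bmal1 and Npas2, with log2 fold changes of 0.013, 0.14 and -0.062.

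**Figure D5:**
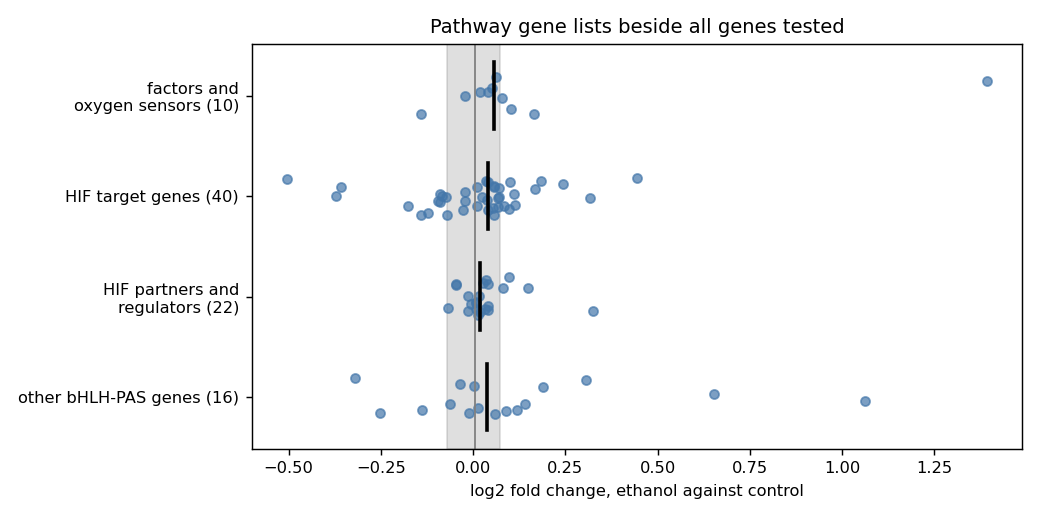
Log2 fold change of each tested gene in the 10 factors and sensors and in 3 lists of pathway genes, ethanol against control, with the number of genes in parentheses and the list median as a black line. The grey line and band are the median and the middle 50% of all genes tested, from -0.072 to 0.072, and the 4 list medians lie within the band.

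The genes whose profile over the 6 libraries was most like that of Hif3a were sought among 14760 genes with a mean of at least 1 CPM, by the root mean square difference of the log2 CPM after centring each gene on its own mean. The 5 closest were Slc10a6, C1qtnf6, Fmo2, Apold1 and Pla2g3, at 0.350, 0.388, 0.435, 0.442 and 0.450 log2 units. The median over all genes was 0.778, and a gene with equal levels in all libraries would be at 0.771. Slc10a6, a transporter of sulfated steroids, had a log2 fold change of 0.95, and Apold1, an endothelial early response gene, had 0.77 on a control mean of 9.28 CPM. The study had already named Slc10a6 beside Hif3a as a candidate, in part from these same libraries, so its place here is not independent evidence. Open chromatin at its promoter and quantitative PCR were other grounds of the study. For C1qtnf6, Fmo2 and Pla2g3 the log2 fold changes were 0.73, 0.79 and 0.79, and the groups of Fmo2 and Pla2g3 overlapped. All 5 genes had their highest value, like Hif3a, in ethanol replicate 3. Slc10a6 and C1qtnf6 had means of 0.835 and 0.8695 CPM in the controls against 1.62 and 1.45 CPM after ethanol. These 2 genes therefore reached the mean of 1 CPM only through the ethanol libraries. The 5 genes were picked for likeness over the same 6 libraries, so their differences are given as a description.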

How the data were processed

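Messenger RNA of the amygdala was sequenced by the authors on 3 lanes, from stranded libraries read at a single end for 100 nt. The submitters' processing notes name the aligner STAR 2.7.0f and the build Rnor_6.0. Per the file headers, the deposited values are raw counts made with featureCounts 1.6.3 over the exons of each gene with the reverse-stranded setting, which leaves out reads that map to several places. No normalization had been applied. Precision was limited by the 3 libraries per group.

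Symbols were matched to 29322 of the 38445 identifiers. Counts were analysed in R 4.3.3 with edgeR 4.0.16 (filterByExpr with a minimum of 10 counts, TMM scaling, quasi-likelihood F test, Benjamini-Hochberg adjustment over all genes tested, threshold 0.2). Standard errors are the absolute log2 fold change over the square root of F, and 2 counts were added as a prior for log2 CPM. The p-values of edgeR set the group difference against the spread between libraries of pooled RNA, not between animals. Ratios were tested by exact permutation of the 20 labellings of 6 libraries. The edgeR, DESeq2 and limma-voom fits were tested on simulated counts. Alternatives were DESeq2 1.42.0, limma-voom (limma 3.58.1), edgeR's likelihood ratio test, library size alone, no filter, a replicate block and leaving out each library.

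The 10 genes and the pathway and marker lists were chosen with earlier results of these data known. Named genes are the 10, of each pathway list those with an unadjusted p below 0.05 (at most the 5 smallest) and the 3 most abundant per length, and the 5 genes most like Hif3a. Pdk1, Tpi1 and Hsp90aa1 were named after their values were seen. Promoter windows came from RefSeq (GRCr8).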

Additional observations from a re-analysis of the deposited data

How the results depend on the processing

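With DESeq2 and with edgeR's likelihood ratio test, 75 and 77 genes had an adjusted p below 0.2 in place of 0, of which 1 was among the 10 (Hif3a, log2 fold change 1.39 and 1.395), and 4 HIF target genes in place of 2 had an unadjusted p below 0.05 with either. That number was 5 with library size alone, where the list median was 0.013, 4 without the filter and 6 with the replicate block. With library size alone the log2 fold change of Egln2 was -0.0073. With each library left out in turn, 0 to 83 genes had an adjusted p below 0.2 over the whole table (4 without ethanol replicate 1 and 83 without ethanol replicate 3) and 0 among the 10, and 570 to 1629 had an unadjusted p below 0.05, with 1 to 2 among the 10 (Hif3a, and Epas1 without ethanol replicate 2). In the same fits the log2 fold change ran from -0.042 to 0.0058 for Hif1a, from -0.023 to 0.089 for Vhl, from -0.021 to 0.040 for Egln2, from -0.0010 to 0.12 for Egln3 and from -0.015 to 0.15 for Hif1an, and the log2 ratio of Egln3 to Egln1 differed by -0.10 to 0.10 between the groups. The number with an unadjusted p below 0.05 ran from 2 to 5 for the HIF targets (list median 0.0066 to 0.039), from 0 to 1 for the partners and regulators and from 1 to 2 for the other basic helix-loop-helix PAS genes. The cause of these shifts was not tested.

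Libraries of the 2 groups share the replicate numbers 1, 2 and 3 but come from separate animals. Over 14760 genes, deviations from the group means correlated by 0.0724 for the libraries numbered 1, 0.332 for those numbered 2 and 0.207 for those numbered 3. Libraries of unlike numbers correlated by -0.355 to 0.213. Control replicates 2 and 3 correlated best with the ethanol library of their own number, and control replicate 1 with ethanol replicate 3 (0.213). Because the animals were separate, the numbers were not taken to pair the libraries. With the replicate number as a block, 0 genes had an adjusted p below 0.2 and 1015 an unadjusted p below 0.05 in place of 753, Hif3a kept a log2 fold change of 1.40 (adjusted p = 0.634, edgeR), and 3 other basic helix-loop-helix PAS genes in place of 1 had an unadjusted p below 0.05. The block moved the 10 genes across neither threshold. Counting error is largest for Hif3a, at 53 to 247 counts, and the spread between the 3 libraries per group limits all 10 genes.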
